A study of Mus musculus with 39 samples.

Results

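The 8 genes described here encode transcription factors that start or hold the fat cell programme: Pparg, Cebpa, Cebpb, Cebpd, Klf15, Ebf1, Ebf2 and Gata2. They were chosen by name, and 11 of the 40628 probes of the array carried 1 of these names among 29411 gene names. Cebpa, Klf15 and Gata2 each had a second probe. Each gene is represented by the probe with the highest mean signal, and the second probes serve as a check. All values are log2 levels, that is, the log2 of the processed signal minus the 75th percentile of the same array, so a level of 0 equals that percentile and a difference of 1 is a doubling. Levels of different genes come from different probes and are not compared with each other.

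The arrays hold RNA of epididymal adipose tissue of C57BL/6J mice, fed after weaning either a low fat control diet (LFC, 11 arrays), a high fat, high sucrose control diet (HFC, 10 arrays), or the latter diet plus KAL-1, a formulation of ethno-botanical origin, at 5, 20 or 75 µg (HF5, HF20 and HF75, 6 arrays each). LFC was sampled on days 1, 6, 10 and 14 and in weeks 0, 3, 6, 9, 12, 15 and 18, HFC from day 6 on, and the KAL-1 diets in weeks 3 to 18. A paper on the liver arrays of this experiment counts weeks from day 14, and so takes day 14 and week 0 as the same time. Here they are kept as separate time points. The labels give the strain and no other allele, and they do not say whether an array holds 1 animal or a pool. Each diet had 1 array at a time point, so the time points of a diet are its replicates. In comparisons between diets the level shared by a time point is taken out, so a p-value measures how diet differences vary between time points. Within 1 diet a p-value measures the spread between its time points. The scan dates mostly followed the time points, which means that a change over time and a change of scan date cannot be told apart. In week 3 LFC was scanned on another date than the other diets. In week 6 HF20 and HF75 were scanned on another date than LFC, HFC and HF5. Differences between these arrays also cross scan dates.

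Fat cell formation runs through a cascade of factors. CEBPB and CEBPD are induced first, by hormonal signals such as cyclic AMP and glucocorticoids, and they switch on PPARG and CEBPA, which keep each other expressed and hold the mature fat cell state. KLF15 is a Krüppel-like factor that responds to glucocorticoids and fasting, and it acts together with PPARG and CEBPA on metabolic genes. EBF1 and EBF2 are early B cell factors that help PPARG reach its sites, EBF2 above all in brown and beige fat cells. GATA2 holds fat cell precursors back from differentiation and is also made in endothelial cells and mast cells.

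The promoters of Cebpa, Klf15 and Cebpb are shown as examples of genes that were high (Cebpa, Klf15) and low (Cebpb) in the first of the sets of arrays described next. Each line gives the 250 bases before the start of the gene on the plus strand of GRCm38.p6, taken from RefSeq. Capitals mark TGACG on either strand, the core letters of the cyclic AMP response element. The window of Cebpa lies at chr7:35119043-35119292, that of Klf15 at chr6:90462326-90462575 and that of Cebpb at chr2:167688665-167688914.
Cebpa: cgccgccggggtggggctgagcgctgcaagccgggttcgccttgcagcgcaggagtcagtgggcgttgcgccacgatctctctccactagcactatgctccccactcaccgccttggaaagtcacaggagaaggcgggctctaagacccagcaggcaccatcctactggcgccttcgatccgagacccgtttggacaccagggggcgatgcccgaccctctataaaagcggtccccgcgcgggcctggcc
Klf15: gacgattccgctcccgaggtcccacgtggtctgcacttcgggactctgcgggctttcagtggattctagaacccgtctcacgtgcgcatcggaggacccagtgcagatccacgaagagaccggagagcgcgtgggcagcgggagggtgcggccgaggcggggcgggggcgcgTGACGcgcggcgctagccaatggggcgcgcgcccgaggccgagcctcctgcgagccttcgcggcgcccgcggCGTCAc
Cebpb: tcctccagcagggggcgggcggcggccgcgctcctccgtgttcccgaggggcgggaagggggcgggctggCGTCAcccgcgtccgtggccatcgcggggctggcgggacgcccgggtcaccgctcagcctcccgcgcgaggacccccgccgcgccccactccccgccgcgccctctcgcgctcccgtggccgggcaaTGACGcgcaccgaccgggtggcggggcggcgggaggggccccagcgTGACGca
The Cebpb window held TGACG 3 times and the Klf15 window 2 times, while the Cebpa window held 0 matches, and 17.8% of 32851 promoter windows of the same length held at least 1. Cebpb also had 5 matches to GGGCGG, a motif bound by SP and Krüppel-like factors, which 32.7% of windows held. The Klf15 window had 2 matches to CACGTG (held by 6.02% of windows), and the Cebpa window 1 match to TATAA (held by 22.8%), each motif counted on both strands. These matches describe the letters of the windows and nothing more. Promoters of Pparg, Ebf1 and Gata2 were searched in the same way and are not printed, and those of Cebpd and Ebf2 are not shown here.

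All 8 genes gave signal above background on most arrays, with limits for Cebpd and Klf15 given below. The representative probes of 7 genes were well above background on all 39 arrays, and that of Gata2 on 38, with its value missing for LFC week 3. Each of 6 adipocyte markers (Adipoq, Plin1, Fabp4, Cidec, Lep and Cfd) was well above background on all 39 arrays too. Their spots were saturated on 39 arrays for Fabp4, 27 for Cfd, 18 for Cidec, 16 for Adipoq, 10 for Plin1 and 0 for Lep. The gene lists used below held other saturated spots, such as Cav1 (31 arrays) and Junb (26). Levels, differences and correlations of such genes and lists carry this limit. The LFC week 3 array (16431 outlier spots) and the HFC week 12 array (10531) stood apart from the other 37 (21 to 387). The levels by diet below include them, and each of the differences named was also computed without them. The Cebpd spot was saturated on 10 arrays, where its level of 5.43 to 6.52 is a lower bound, and not on the arrays with its highest levels. The highest, 7.03 on HF5 week 9, came from the array with the weakest signal (75th percentile at log2 6.90, 53.7% of spots well above background). That array also held the highest Pparg level, 5.57, and the part of its weak signal in these levels was not tested. The second probe followed the first closely for Cebpa (r = 0.80 and 0.89 across arrays within the 2 sets defined next) and Gata2 (0.89 and 0.88), and weakly for Klf15 (0.09 and 0.42). These coefficients are descriptive.

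The 37 arrays were divided by clustering on the levels of the 8 genes, with the number of sets fixed at 2 beforehand. Average, Ward and complete linkage gave the same division, a first set of 11 arrays and a second set of 26. Agreement of the linkages does not show that the sets are separate. The largest gap between neighbouring arrays was 10.3% of the range for Cebpa, 10.2% for Cebpb and 14.9% for Cebpd. Of these gaps, only that of Cebpa, from 2.51 to 3.07, lay between the sets. The first set held LFC days 1 and 6 and week 12, HFC days 6, 10 and 14 and week 3, HF20 weeks 6, 12 and 18, and HF75 week 12. None of the HF5 arrays was among them. Since the sets were made from the members' own levels, the ranges given for the 8 genes are a description, with no test.

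Cebpa ranged from 3.07 to 4.66 in the first set and from -0.84 to 2.51 in the second, so the ranges did not overlap. Klf15 was also higher in the first set, at 1.20 to 3.51 against -1.42 to 1.48, with some overlap. Both factors belong to the late part of the cascade. The factors of its early part lay the other way. Cebpd was at 2.53 to 4.61 in the first set and 5.26 to 7.03 in the second, and Cebpb at -0.15 to 1.06 and 1.12 to 3.07. Neither pair of ranges overlapped. Of the 10 arrays with a saturated Cebpd spot, 9 belonged to the second set, 0 to the first, and the other is HFC week 12.

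Gata2 was lower in the first set (-1.53 to 0.41) than in most of the second (0.15 to 2.08). The ranges of Pparg (4.25 to 5.19 and 2.69 to 5.57), Ebf1 (-1.58 to 0.55 and -0.91 to 1.12) and Ebf2 (-0.17 to 1.05 and -0.42 to 1.72) overlapped broadly. The clustering used unscaled levels, so genes with a wide spread, such as Cebpa (SD 1.69), weighed more in it than Pparg (SD 0.61). The contrast between these genes therefore follows in part from how the sets were made. The second probes were not used to form the sets, but they target the same transcripts and so are not an independent test. They gave ranges of -0.53 to 1.14 and -4.80 to -0.22 for Cebpa, -2.86 to -1.38 and -5.77 to -2.74 for Klf15, and -2.52 to -0.57 and -0.45 to 1.48 for Gata2. Only the last of these pairs was free of overlap.

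Of 16 gene lists that took no part in the clustering, 3 had ranges that did not overlap between the sets. The share of all probes without such overlap was not computed, so the absence of overlap does not single out these lists or the members. The list levels below are the median of the listed genes after centring each gene. The 6 immediate early genes (Fos, Fosb, Jun, Junb, Egr1 and Ier2, which respond within minutes to stimulation or handling of tissue) were at -4.57 to 0.18 in the first set and at 0.87 to 2.37 in the second. The 5 endothelial markers were at -1.82 to -0.49 and -0.29 to 1.34, and the 16 measured factors and signals that restrain adipogenesis at -1.33 to -0.35 and 0.02 to 0.80. None of these 3 pairs of ranges overlapped. The 10 glucocorticoid induced genes (-2.08 to -0.29 and -0.42 to 1.34) overlapped slightly. The 6 adipocyte markers (-0.13 to 0.65 and -2.18 to 1.38) overlapped fully, with medians of 0.42 and -0.15. The other 11 lists overlapped too, some of them with shifted medians. The 21 adipocyte genes bound by PPARG and C/EBP factors were at 0.39 to 1.41 (median 0.80) and -1.98 to 1.37 (median -0.27). Mesothelium markers were at 0.20 to 2.45 (median 1.48) and -5.81 to 1.64 (median 0.34). Also among the 11 were the macrophage (-1.06 to 1.48 and -1.14 to 1.25), mast cell (-0.72 to 1.76 and -2.31 to 2.51) and B cell markers (-1.84 to 0.87 and -1.56 to 2.65). The share of spots well above background was 66.5% to 79.6% in the first set and 53.7% to 79.2% in the second. The part of handling, cell makeup or signal quality in the members' levels was not tested.

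The array titles ran with the sets. Of the 32 arrays of weeks 0 to 18, 26 have a title that ends in the letter A and 6 do not, and these 6 were the 6 week arrays of the first set. The division is by the last character only. The titles of LFC week 12, HF20 weeks 6 and 12 and HF75 week 12 hold an A followed by a digit, while that of HFC week 3 ends in a digit and that of HF20 week 18 in D. The labels do not say what these endings stand for. Of the 7 day arrays, none with a title ending in A, 5 were in the first set, and LFC days 10 and 14 were in the second. The 2 arrays that stand apart have titles ending in A. Because the title endings come from the labels, each comparison below was repeated without the 6 week arrays whose titles do not end in A. That alternative was chosen after seeing the data.

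**Figure D1:**
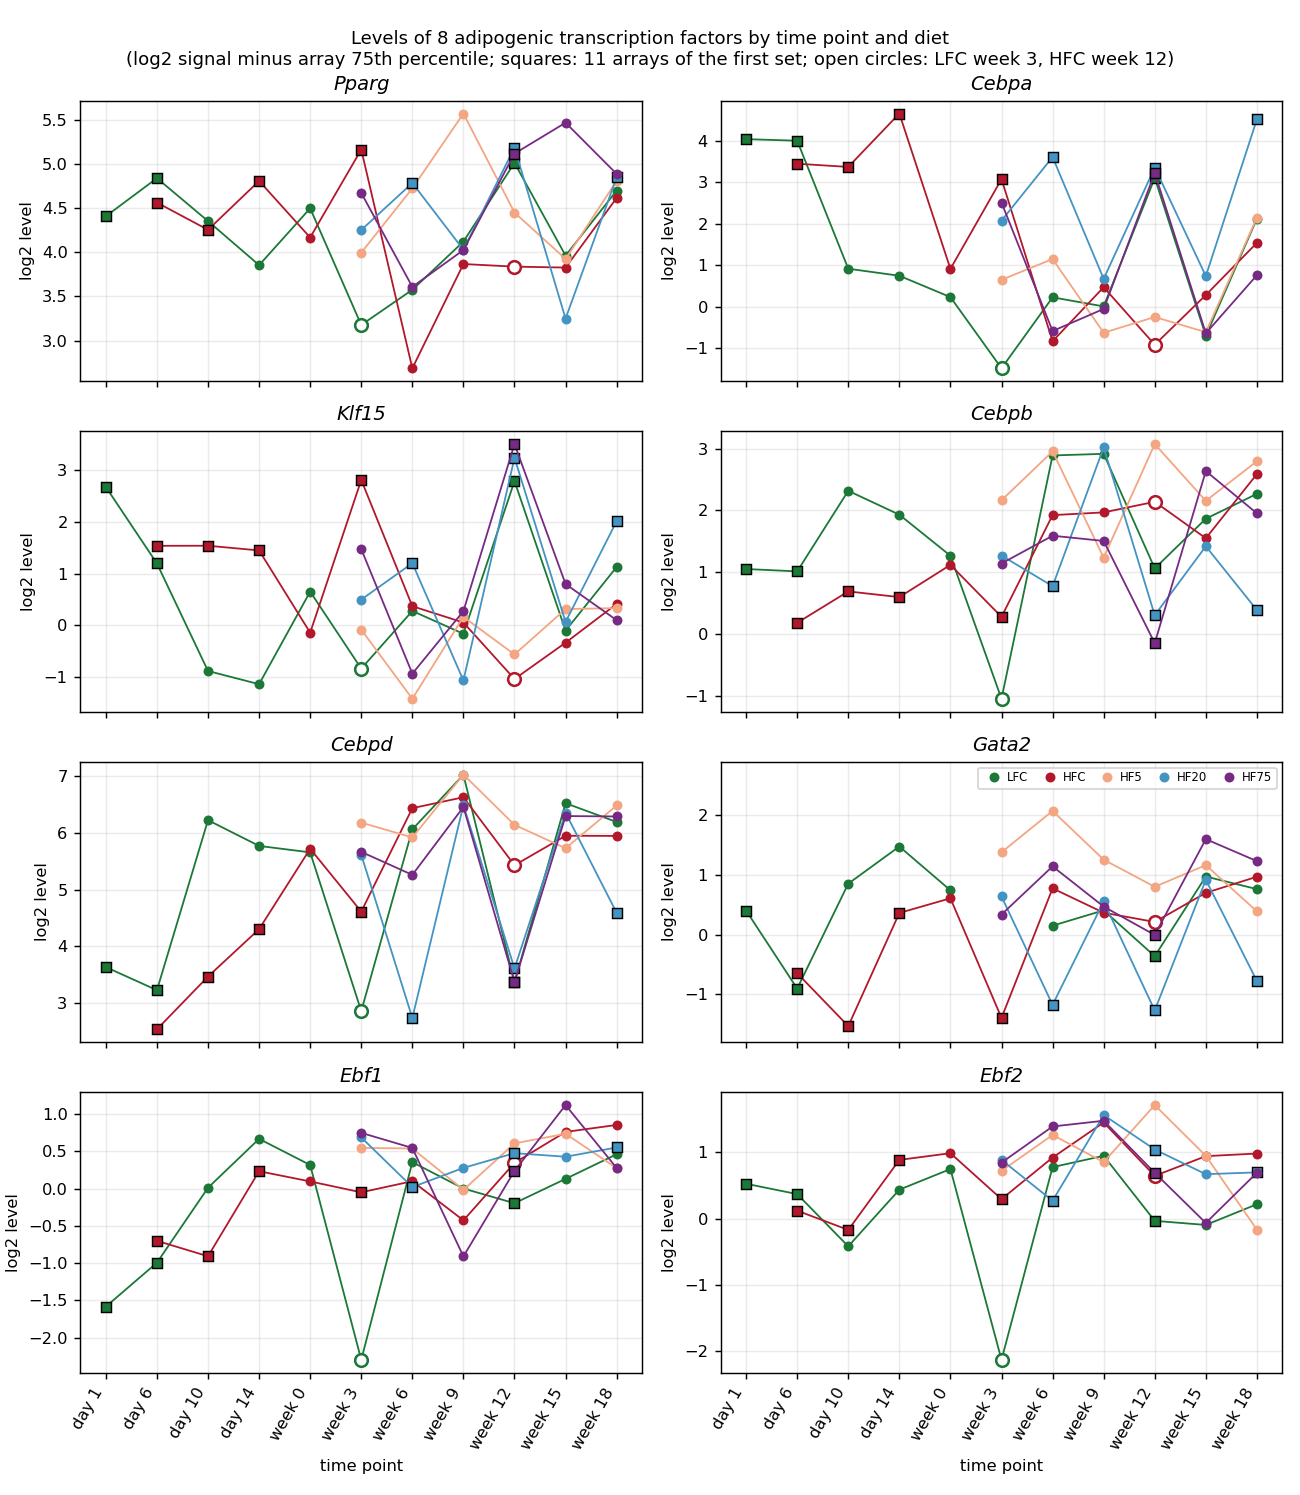
Level of each factor (vertical axis, log2 of signal minus the array's 75th percentile) by time point (horizontal axis), 1 point per array and 1 colour per diet. Squares mark the 11 arrays of the first set, where Cebpa was at 3.07 or more and Cebpd at 4.61 or less, and open circles mark LFC week 3 and HFC week 12.

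Among the factors of the mature fat cell, Pparg was the steadiest. Its lowest, median and highest levels were 3.18, 4.35 and 5.01 on LFC and 2.69, 4.21 and 5.16 on HFC. On the KAL-1 diets they were 3.92, 4.59 and 5.57 (HF5), 3.25, 4.52 and 5.19 (HF20) and 3.61, 4.78 and 5.47 (HF75). All 5 diets overlapped. The SD of Pparg over 37 arrays was 0.61, which 50.2% of 18692 probes fell below, so its spread was that of the typical probe (median SD 0.613).

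Cebpa was the most variable of the 8. It ran from -1.49 through 0.74 to 4.04 on LFC and from -0.92 through 1.22 to 4.66 on HFC. The ranges were -0.63 to 2.15 (median 0.20) on HF5, 0.67 to 4.51 (median 2.71) on HF20 and -0.65 to 3.22 (median 0.35) on HF75. The highest array was HFC day 14 and the lowest of the 37 was HFC week 6, a 45-fold range within 1 diet. Its SD of 1.69 exceeded that of 98.0% of the probes.

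Klf15 was at -1.14, 0.28 and 2.79 (lowest, median, highest) on LFC and at -1.04, 0.39 and 2.81 on HFC. On the KAL-1 diets its range was -1.42 to 0.34 on HF5, -1.06 to 3.24 on HF20 and -0.93 to 3.51 on HF75. On LFC, HFC, HF20 and HF75 the highest level, in week 12 or week 3, came from an array of the first set. The SD was 1.25, above that of 93.1% of the probes.

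Of the early factors, Cebpd had the wider spread. Its lowest, median and highest levels were 2.85, 5.77 and 7.02 on LFC and 2.53, 5.57 and 6.63 on HFC. HF5 stayed between 5.73 and 7.03, while HF20 reached from 2.73 to 6.49 and HF75 from 3.37 to 6.46. The SD was 1.30, above that of 94.1% of the probes. Cebpb was at -1.05, 1.86 and 2.92 on LFC and at 0.18, 1.33 and 2.59 on HFC. It lay between 1.23 and 3.07 on HF5, 0.30 and 3.02 on HF20 and -0.15 and 2.64 on HF75, with an SD of 0.90. The lowest LFC value of Cebpb came from week 3, the array with the most outlier spots, and so did that of Cebpd. Without it the lowest LFC levels were 1.01 for Cebpb and 3.22 for Cebpd, and -0.71 for Cebpa.

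Gata2 was at -0.90, 0.58 and 1.48 on LFC (10 arrays) and at -1.53, 0.37 and 0.97 on HFC. It ranged from 0.39 to 2.08 on HF5, from -1.27 to 0.92 on HF20 and from -0.004 to 1.60 on HF75. The HF5 arrays thus held the highest level and the HF20 arrays the lowest of the KAL-1 diets. Ebf1 and Ebf2 varied less than most probes, with SDs of 0.58 and 0.53. Ebf1 had medians of 0.01 on LFC, 0.10 on HFC, 0.54 on HF5, 0.45 on HF20 and 0.41 on HF75. For Ebf2 the medians were 0.37, 0.91, 0.90, 0.79 and 0.77 in the same order. The lowest level of each was that of LFC week 3, at -2.30 for Ebf1 and -2.13 for Ebf2.

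When the diets were ordered by their mean level over weeks 3 to 18, all 32 pairs of neighbours overlapped in range, and 29 of them differed by less than the smaller of the 2 SDs. For Cebpa the order was HF20, HF75, HFC, LFC and HF5, with means of 2.49 ± 1.59, 0.87 ± 1.64, 0.60 ± 1.52, 0.54 ± 1.74 and 0.41 ± 1.11 (SD, n = 6 each). The gap between HF20 and HF75 was 1.02 times the smaller SD. The other gaps above the smaller SD set LFC below its neighbour, for Ebf2 below HF75 (-0.05 ± 1.1 against 0.84 ± 0.56, 1.59 times) and for Ebf1 below HFC (-0.26 ± 1.03 against 0.26 ± 0.49, 1.06 times). These LFC means include week 3.

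The high fat diet was compared with the low fat diet over the 10 time points they share, with time point as a block. The factor with the clearest difference was Ebf2, which was 0.62 higher on HFC (SE 0.24, 95% interval 0.11 to 1.14, 1.54-fold). It was higher at 9 of 10 time points, with differences of -0.25 at day 6 and 0.14 to 2.43 at the others, the highest in week 3. Its p was 0.0222 and its adjusted p 0.998 (limma, over 29168 probes), so it did not pass. With LFC week 3 and HFC week 12 left out the difference was 0.39 (p = 0.0355, limma). The same value came from leaving out the week arrays with other titles, since both take the pairs of weeks 3 and 12 out of the comparison.

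The other 7 factors had intervals that spanned 0. Cebpa was 0.68 higher on HFC (SE 0.70, interval -0.83 to 2.20), and its differences ran from -4.02 to 4.56, with 6 of 10 time points higher. It was 0.25 without week 3, 0.33 without day 14 and 1.21 without week 12. In the terms of the 2 sets, day 10 and day 14 paired an LFC array of the second set with an HFC array of the first. Klf15 was 0.37 higher (SE 0.59), and 0.01 without week 3, 0.84 without week 12 and 0.07 by its second probe. Ebf1 was 0.18 higher (SE 0.27). Pparg differed by -0.03 (SE 0.28, interval -0.64 to 0.58). The differences were -0.35 (SE 0.30) for Cebpb, -0.19 (SE 0.41) for Cebpd and -0.25 (SE 0.31, 9 pairs) for Gata2. With the pairs of weeks 3 and 12 left out, Cebpb was at -0.73 (p = 0.00801) and Cebpd at -0.71 (p = 0.0476), each with an adjusted p of 0.708 (limma). These 2 values are more than 1.5 times those over all pairs.

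Over all probes this comparison called 0% (0 of 29168) at an adjusted p under 0.05, and 0 of 8 members. At an unadjusted p under 0.05 it had 889 probes, or 3.05%, and 1 of 8 members. The methods' t-test, run on differences of pairs, also called 0 probes, with 928 under 0.05 before adjustment. Of the members, 4 were higher and 4 lower, with a median of 0.08 against 0.03 for all probes.

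The lists around these factors also held 0 called genes in HFC against LFC. Of the 14 partners and coregulators of PPARG, 10 were higher with a median of 0.16, and Rxra, the retinoid receptor that pairs with PPARG, had the smallest p (0.42 higher, SE 0.29, p = 0.181). The 16 other factors that promote adipogenesis had 9 higher and a median of 0.05, with Stat5a at 0.42 (SE 0.25, p = 0.126). Among the 16 tested that restrain it, 8 were higher (median -0.03) and Foxc2 was 0.74 lower (difference -0.74, SE 0.36, p = 0.0625). The values of p are from limma before adjustment.

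Of 21 adipocyte genes bound by PPARG and C/EBP factors, 15 were higher on HFC with a median of 0.18, and 1 had a p under 0.05. That gene was Lep, which encodes the satiety hormone leptin, 1.67 higher (SE 0.58, p = 0.0137, adjusted p = 0.998, limma). None of the 10 glucocorticoid induced genes was higher (median -0.13), and the smallest p was that of Per1, a clock gene, at -0.38 (SE 0.31, p = 0.249).

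Markers of the cells in the tissue held 0 called genes in this comparison. The medians were 0.36 for the 6 adipocyte, 0.59 for the 5 measured macrophage, -0.15 for the 5 endothelium, -0.17 for the 5 mast cell and -0.64 for the 4 B cell markers tested. They were 0.12 for 7 progenitor and fibroblast markers, 0.86 for 5 of mesothelium (5 of 5 higher, 3 with p under 0.05), -1.71 for 5 of epididymis, -0.21 for 3 of skeletal muscle, -0.55 for 3 of brown fat and -0.20 for 6 immediate early genes. In tissue RNA, fewer cells of a type and less RNA per cell cannot be told apart, and the part of these lists in the members' differences was not tested.

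**Figure D2:**
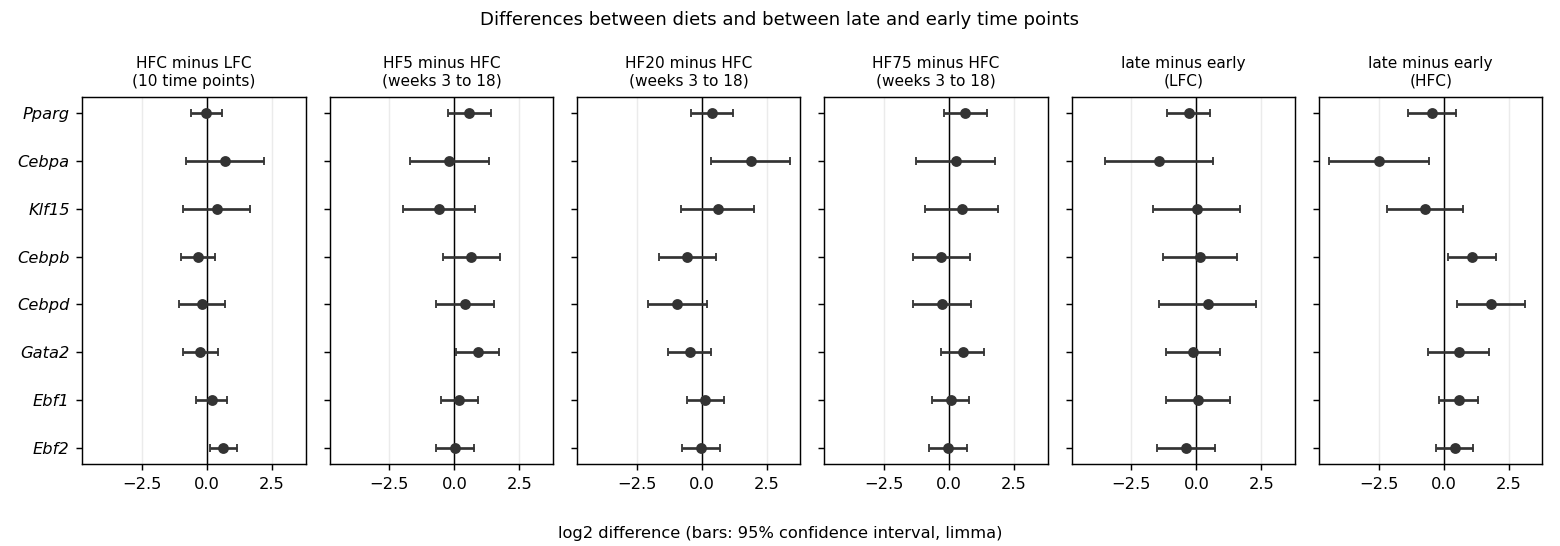
Difference of each factor (horizontal axis, log2) in 6 comparisons, with the 95% interval from limma as bars and 0 as the vertical line. In HFC minus LFC only the interval of Ebf2 lies above 0, and on HFC the late minus early intervals of Cebpa, Cebpb and Cebpd leave out 0.

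The KAL-1 diets were compared with HFC over weeks 3 to 18 in 1 fit of 30 arrays. They share the HFC arrays, so the comparisons are not independent of each other. On HF20, Cebpa was 1.89 higher than on HFC (SE 0.74, interval 0.37 to 3.41, 3.71-fold, p = 0.0170, adjusted p = 0.780, limma). The HF20 levels were 2.07, 3.61, 0.67, 3.35, 0.74 and 4.51 in weeks 3, 6, 9, 12, 15 and 18, and the HFC levels 3.07, -0.84, 0.47, -0.92, 0.28 and 1.54. The difference was -1.0 in week 3, 4.44, 4.27 and 2.98 in weeks 6, 12 and 18, where the HF20 array is of the first set, and 0.20 and 0.46 in weeks 9 and 15. The HF20 and HFC arrays of week 6 were scanned on different dates. Without the week arrays that have other titles the Cebpa difference was 1.09 (p = 0.139), and the second probe gave 0.97 (p = 0.121, limma). Without LFC week 3 and HFC week 12 it was 1.36 (p = 0.0425). Leaving out week 6, week 12 or week 18 on all diets gave 1.38 (p = 0.101), 1.42 (p = 0.0511) and 1.68 (p = 0.0618).

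The other 7 factors on HF20 ranged from -0.94 (Cebpd) to 0.61 (Klf15). On HF20 the 6 immediate early genes were all lower than on HFC (median -2.27), and 5 of them had a p under 0.05. The 5 endothelium markers were all lower (median -0.57), while 18 of 21 adipocyte genes bound by PPARG and C/EBP factors were higher (median 0.70). The mesothelium markers were higher too (5 of 5, median 0.91), and so were 5 of 6 epididymis markers (median 1.47). No gene of these lists was called, and their part in the Cebpa difference was not tested.

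Gata2 was the factor with the smallest p on HF5, 0.91 higher than on HFC (SE 0.40, interval 0.08 to 1.73, 1.87-fold, p = 0.0332, adjusted p = 0.954, limma). The HF5 levels were 1.38, 2.08, 1.26, 0.80, 1.17 and 0.39 in weeks 3 to 18 in order, and the HFC levels -1.40, 0.78, 0.37, 0.21, 0.70 and 0.97. HF5 was higher in 5 of 6 weeks, and the largest difference, 2.78 in week 3, was against an HFC array of the first set. Without week 3 the difference was 0.53 (p = 0.157), and without the week arrays with other titles it was 0.60 (p = 0.0580, limma). The second Gata2 probe gave 1.04 (p = 0.0266), and leaving out LFC week 3 and HFC week 12 also gave 1.04 (p = 0.0210). The other factors lay between -0.59 (Klf15) and 0.66 (Cebpb). Endothelium markers had 4 of 5 genes higher on HF5 (median 0.61), none with a p under 0.05, and 2 of 5 mast cell markers were higher (median -0.56). Their part in the Gata2 difference was not tested.

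On HF75 the smallest p was that of Pparg, 0.63 higher than on HFC (SE 0.39, interval -0.18 to 1.45, p = 0.123, limma). It was higher in 5 of 6 weeks, with levels of 4.67, 3.61, 4.03, 5.12, 5.47 and 4.89 against 5.16, 2.69, 3.87, 3.84, 3.83 and 4.61 on HFC. Without LFC week 3 and HFC week 12 the difference was 0.50 (p = 0.223, limma). The other factors ranged from -0.30 (Cebpb) to 0.53 (Gata2). For the mean of the 3 doses, Pparg again had the smallest p (0.53 higher, SE 0.32, interval -0.13 to 1.20, p = 0.111). That value was 0.30 (p = 0.384) without week 6, when HFC had its lowest level, 0.81 (p = 0.0212) without week 3, 0.91 (p = 0.0723) with median scaling and 0.29 (p = 0.246) with array weights. All 21 adipocyte genes bound by PPARG and C/EBP factors were higher in that mean, with a median of 0.48 against -0.02 for all probes and with 0 of them under an unadjusted p of 0.05.

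Against HFC, 0% of 31452 probes were called for HF5, HF20, HF75 or the mean of the doses, and 0 of 8 members. The probes with an unadjusted p under 0.05 were 1076 (3.42%) for HF5, 1523 (4.84%) for HF20, 472 (1.50%) for HF75 and 549 (1.75%) for the mean. The members under that limit were 1, 1, 0 and 0 in the same order.

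Late time points (weeks 3 to 18) were compared with early ones (days 1 to 14 and week 0) on LFC, the low fat control diet. All 8 intervals spanned 0. Cebpa was at -1.44 (SE 0.96, interval -3.52 to 0.63, p = 0.157), Ebf2 at -0.39 (SE 0.51), Pparg at -0.30 (SE 0.38) and Gata2 at -0.13 (SE 0.47). Cebpd was at 0.44 (SE 0.86), Cebpb at 0.14 (SE 0.66), Ebf1 at 0.06 (SE 0.57) and Klf15 at 0.01 (SE 0.77). The early LFC arrays included 2 of 5 in the first set, and the late ones 1 of 6. Without LFC week 12, the week array with another title, Cebpa was at -1.95 (p = 0.0516, limma). On this diet 149 of 30420 probes (0.490%, 82 higher and 67 lower, and 54 and 24 with median scaling) were called and 0 of 8 members, and 1680 probes (5.52%) and 0 members had an unadjusted p under 0.05.

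Around the factors, LFC held 0 called genes in the 5 lists. The smallest p of each list was that of Ppargc1b, a coactivator (-1.24, SE 0.74, p = 0.116), Nfib (-0.60, SE 0.49, p = 0.244), Dlk1, the preadipocyte factor Pref-1 (-1.26, SE 0.56, p = 0.0433), Fabp4, the fatty acid carrier of fat cells (0.65, SE 0.37, p = 0.103), and Fkbp5, a feedback inhibitor of the glucocorticoid receptor (1.22, SE 0.47, p = 0.0215, limma). The Fabp4 spot was saturated on all 39 arrays, so its difference cannot be read as a change in its level. All 10 glucocorticoid induced genes were higher late, with a median of 0.69, and 0 of 5 mesothelium markers were (median -1.76). The 5 mast cell markers (median 1.36, 3 with p under 0.05) and the 5 B cell markers (median 1.50, 2 with p under 0.05) were all higher late. Their part in the members' differences was not tested.

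On HFC the same contrast gave intervals that left out 0 for 3 of the 8 factors. Cebpa was at -2.49 late against early (SE 0.87, interval -4.41 to -0.58, p = 0.0154, adjusted p = 0.229, limma). The HFC levels of Cebpa were 3.45, 3.37 and 4.66 on days 6, 10 and 14, 0.91 in week 0 and -0.92 to 3.07 later, so the 3 day arrays stood above all the others. Cebpd was 1.83 higher late (SE 0.59, interval 0.53 to 3.13, p = 0.0102, adjusted p = 0.218). Its levels were 2.53, 3.46 and 4.30 on the 3 days, 5.72 in week 0 and 4.61 to 6.63 later. Cebpb was 1.1 higher (SE 0.42, interval 0.18 to 2.01, p = 0.0233, adjusted p = 0.244), with 0.18, 0.69 and 0.59 on the days, 1.12 in week 0 and 0.27 to 2.59 later. Day 14 and week 0, the same time by the paper's count, differed for Cebpa (4.66 and 0.91), Cebpd (4.30 and 5.72) and Cebpb (0.59 and 1.12). The other 5 factors ranged from -0.72 (Klf15) to 0.58 (Ebf1) late against early.

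None of the members was called on HFC at 0% of 29398 probes called, but 5097 probes (17.3%) had an unadjusted p under 0.05, against 3 of 8 members. Of the early arrays 3 of 4 were in the first set, and of the late arrays 1 of 6. When only weeks 0 to 18 were used, Cebpa was at -0.31, Cebpd at 0.11 and Cebpb at 0.62 (adjusted p = 1.00 for each, limma). Without week 0, Cebpd was 2.40 higher with an adjusted p of 0.0433, and 825 probes were called. Array weights, which count an array less the farther it lies from the fitted model, called 5 members among 8030 probes called. These were Cebpa at -3.09, Cebpd at 2.54, Cebpb at 1.32, Klf15 at -1.31 and Ebf1 at 0.94. Such weights come from the fit itself and not from a separate measure of quality. Without HFC week 3, the week array with another title, Cebpa was at -2.99 and Cebpb at 1.39, with adjusted p of 0.0624 and 0.0604. Without HFC week 12, Cebpa was at -2.19, Cebpd at 1.91 and Cebpb at 1.02.

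The lists around these factors held 0 called genes on HFC. All 6 immediate early genes were higher late (median 2.58, 4 with p under 0.05), and so were all 10 glucocorticoid induced genes (median 1.41, 5 with p under 0.05). Among the latter, Zbtb16 was 1.63 higher (SE 0.29) and Per1 1.36 higher (SE 0.43). Of the adipocyte genes bound by PPARG and C/EBP factors 18 of 21 were lower (median -0.88), 5 of them with a p under 0.05, among them Lipe, the hormone-sensitive lipase, at -1.69 (SE 0.67), and Agpat2, an enzyme of triglyceride synthesis, at -2.92 (SE 1.09). The restraining factors had 14 of 16 higher (median 0.60), with Klf2 at 1.70 (SE 0.52), and 0 of 5 mesothelium markers were higher (median -1.55). The part of the scan dates in these values cannot be told apart from the time points.

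Whether the late against early difference differed between the diets was tested on the 10 HFC minus LFC differences. Cebpd had the smallest p, with a difference 1.71 larger late than early (SE 0.70, interval 0.18 to 3.24, p = 0.0313, adjusted p = 0.841, limma). The other factors ranged from -1.57 (Cebpa) to 1.07 (Cebpb). Over all probes 0% of 29168 were called, 1498 (5.14%) had an unadjusted p under 0.05, and the members 0 and 1 of 8. The Cebpd value was 1.00 (p = 0.111) without the pairs of weeks 3 and 12, 0.52 (p = 0.318) with array weights, 0.43 (p = 0.716) with weeks 0 to 18 alone and 1.20 to 2.14 without 1 time point, the lowest without day 10. In the same comparison all 6 immediate early genes were higher (median 2.79, 4 with p under 0.05), and so were all 5 endothelium markers (median 1.43, 3 with p under 0.05) and 12 of 16 restraining factors (median 0.82, 4 with p under 0.05). None of these genes was called, and their part in the Cebpd value was not tested.

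**Figure D3:**
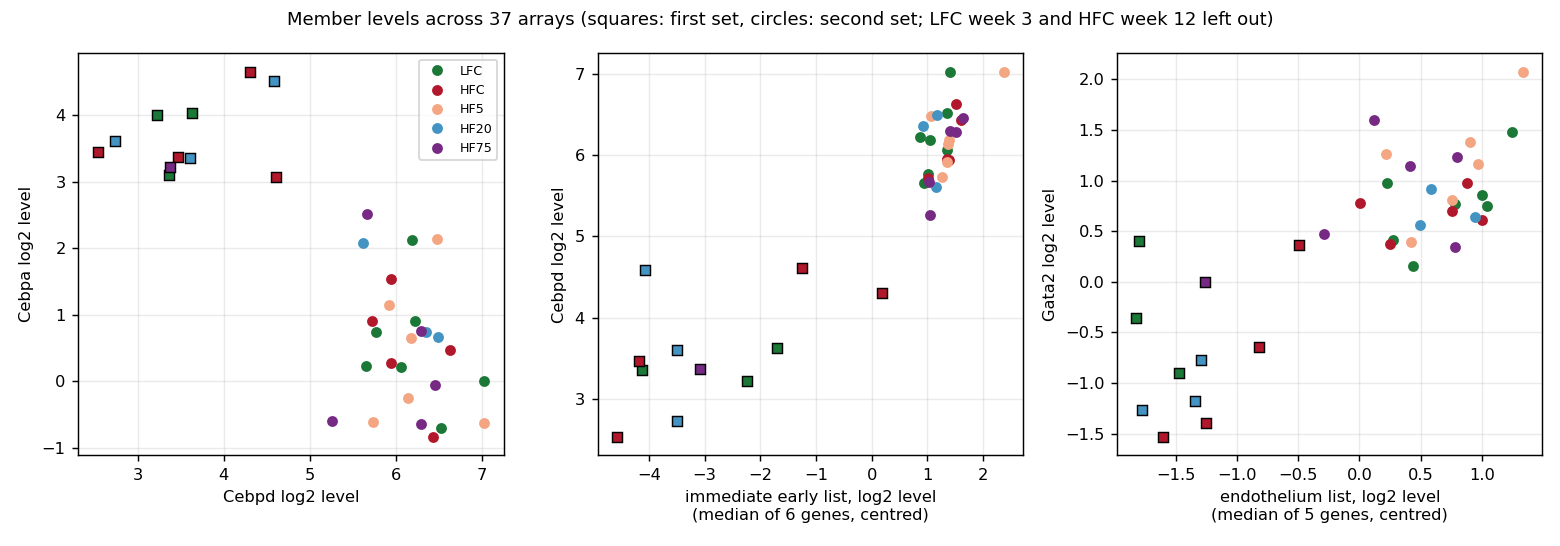
Levels on 37 arrays, 1 point per array and 1 colour per diet, with squares for the first set and circles for the second (all axes log2). The left panel plots Cebpa against Cebpd, the middle Cebpd against the immediate early list and the right Gata2 against the endothelium list. The 11 squares lie apart from the 26 circles on Cebpa, on Cebpd and on both lists.

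Because the arrays were divided into 2 sets, correlations between the factors were computed within each set only. Permutations moved single arrays within a set, without regard to diet, time point or scan date. None of the 28 pairs in either set (56 relations) passed a permutation test of 100000 resamples after Benjamini-Hochberg adjustment. The strongest in the second set (26 arrays) was Cebpd with Ebf1, at r = -0.53 (permutation p = 0.0047, adjusted p = 0.263) and rho = -0.63 (permutation p = 0.001, adjusted p = 0.0543). It was -0.53 without the 2 arrays farthest from the median of Cebpd and -0.28 within time points. In the first set (11 arrays) it was Pparg with Ebf1, at r = 0.72 and rho = 0.63 (permutation p = 0.013 and 0.043, adjusted p = 0.364 and 0.560). There r was 0.47 without 2 arrays. Cebpa with Cebpd, which stand in opposite order between the sets, had r = -0.25 in the second set and 0.37 in the first (permutation p = 0.21 and 0.27), and only 9 of 28 pairs had the same sign in both sets. The sets were formed on these levels, which narrows their range within a set.

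**Figure D4:**
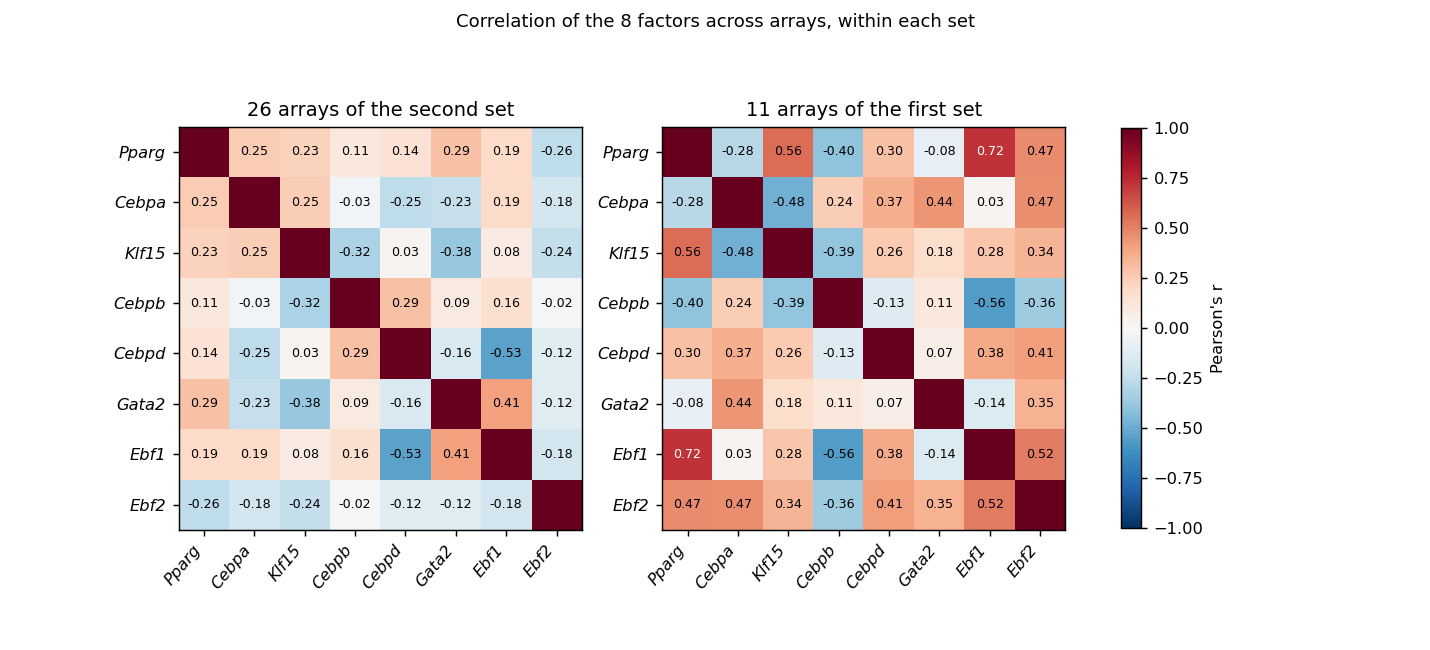
Pearson's r between the 8 factors across the 26 arrays of the second set (left) and the 11 arrays of the first set (right), from -1 (blue) to 1 (red). The panels share a sign for 9 of 28 pairs, and the values differ for pairs such as Cebpa with Cebpd at -0.25 and 0.37.

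Against the gene lists and 2 measures of array quality, 288 relations were tested in the same way, of which 12 passed in the second set and 2 in the first. In the second set, Cebpa ran with the adipocyte genes bound by PPARG and C/EBP factors (r = 0.73, permutation p = 4e-05, adjusted p = 0.0115, rho = 0.66, 0.64 without 2 arrays, 0.45 within time points). Pparg did the same (r = 0.62, permutation p = 0.00069, adjusted p = 0.0329, rho = 0.73, 0.62 without 2 arrays, 0.59 within time points). The 6 adipocyte markers, all of them in that list as well, had r = 0.60 with Pparg and 0.59 with Cebpa (adjusted permutation p = 0.0329 for both).

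Further relations in the second set were with the restraining and promoting factors and the B cell markers. Cebpa ran against the restraining factors and signals (r = -0.61, permutation p = 0.00095, adjusted p = 0.0329, rho = -0.59, -0.51 without 2 arrays, -0.68 within time points). The other factors that promote adipogenesis ran with Pparg (r = 0.67, rho = 0.62) and with Gata2 (r = 0.65, rho = 0.55), each with an adjusted permutation p of 0.0216. Within time points these were 0.81 and 0.83. The B cell markers ran against Pparg (r = -0.61, rho = -0.73) and Cebpa (r = -0.59, rho = -0.60), at adjusted permutation p = 0.0329, with -0.50 and -0.34 within time points.

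Cebpd had 3 relations past the threshold in the second set and 1 in the first. It ran with the immediate early genes (r = 0.58, rho = 0.53, 0.38 within time points) and against the endothelium markers (r = -0.61, rho = -0.68, -0.34 within time points), both at adjusted permutation p = 0.0329. It also ran against the 75th percentile of the array signal (r = -0.65, rho = -0.56, adjusted permutation p = 0.0216), the measure that sets where a saturated spot ends up on this scale. That percentile is subtracted in every level, so a negative r is partly built in. This relation is a description, though it is counted among those that passed. In the first set, where 0 of its spots were saturated, it ran with the glucocorticoid induced genes (r = 0.85, permutation p = 0.00096, adjusted p = 0.0329, rho = 0.87, 0.75 without 2 arrays). Ebf1 ran with the partners and coregulators of PPARG there (r = 0.84, rho = 0.91, adjusted permutation p = 0.0329).

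The genes most like each factor were ranked by Pearson's r over the 37 arrays among 18692 probes. That r spans both sets of arrays, so the values within the second and the first set are given instead, as a description. For Cebpd the closest were Klf4, Maff and Klf2 (0.65, 0.69 and 0.61 in the second set, 0.87, 0.63 and 0.88 in the first). Klf4 and Klf2 are Krüppel-like factors with opposite roles in fat cell formation. Cebpa was closest to Aco1, Ctdspl and 2310001A20Rik (0.89, 0.86 and 0.89, and 0.55, 0.69 and 0.36). Aco1 encodes cytosolic aconitase. Gata2 was closest to Lama5, Ephb4 and 2310046K01Rik (0.75, 0.75 and 0.65, and 0.81, 0.67 and 0.80), of which Ephb4 is a receptor of venous endothelium.

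For Cebpb they were Yrdc, Rabgef1 and Etv6 (0.81, 0.77 and 0.74, and 0.72, 0.13 and 0.59). Klf15 was closest to 5730403B10Rik, Ccdc90b and Pigp (0.58, 0.63 and 0.67, and 0.91, 0.85 and 0.75). Pparg had LOC631217, Ndufc2 and Mgmt (0.81, 0.85 and 0.77, and 0.56, 0.14 and 0.40), with Ndufc2 a subunit of respiratory complex I. Ebf1 was closest to Rasgrf2, Epn2 and Cnot4 (0.72, 0.73 and 0.75, and 0.85, 0.79 and 0.78). Ebf2 had Fut10, Bmper and Slit3 (0.77, 0.76 and 0.73, and 0.78, 0.74 and 0.65), of which Bmper encodes a secreted modulator of BMP signalling. Rankings over arrays in 2 sets favour probes that divide the sets, most of all for Cebpa and Cebpd.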

How the data were processed

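RNA of 39 one-colour arrays was analysed. Per the file headers, the deposited scanner files hold intensity values from Feature Extraction 10.5.1.1, background-subtracted within each array and annotated on mm9. The authors' deposited table holds log2 differences from LFC after normalisation in GeneSpring GX and served as an alternative. Columns of both were matched to samples by file and title.

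From the processed intensity, log2 was taken and the array's 75th percentile subtracted. Outlier spots were dropped, and a probe took the mean of its spots. A probe was tested if well above background on 10 of 20 arrays (HFC against LFC, and its change over time), 6 of 30 (weeks 3 to 18) or 5 (within LFC or HFC). Tests were limma 3.58.1 (R 4.3.3, with version 1.17.8 of data.table), two-sided, with Benjamini-Hochberg adjustment over all probes tested, at 0.05, with time point as a block between diets. The code was tested on simulated data. Correlations, clusters and figures used Python 3.11.15, pandas 2.3.3, numpy 2.4.6 and matplotlib 3.10.9.

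Differences are given for all 8 factors between HFC and LFC and over time on LFC. Elsewhere those with an unadjusted p under 0.05, or else the smallest p, are named and the others given by range. The lists are partners and coregulators of PPARG, other factors that promote adipogenesis, those that restrain it, adipocyte genes bound by PPARG and C/EBP factors, glucocorticoid induced genes, immediate early genes and markers of 10 cell types and tissues. The members and lists were chosen with earlier results of these data known. The first and second set of arrays and the alternative by title ending were chosen after seeing the data. Alternatives changed the background correction, scaling, filter, outlier spots, array weights, block and arrays. The number of arrays limits the precision.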

Additional observations from a re-analysis of the deposited data

How the results depend on the processing

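Of 267 values recomputed under another processing 242 kept their direction and their side of the threshold and 22 changed sign, and so did 211 and 20 of the 232 values that leave out 1 time point. No member was called between diets, or over time on LFC, under any alternative run. In HFC against LFC, Pparg was 0.12 with normexp and 0.10 with median scaling, and Klf15 -0.19 with array weights. Ebf1 was -0.074 with normexp, -0.081 with array weights, -0.12 without LFC week 3 and HFC week 12 or without the week arrays with other titles, and -0.044 with scan date as the block. Leaving out 1 time point gave -0.25 to 0.10 for Pparg, -0.44 to 0.10 for Cebpd, -0.044 to 0.31 for Ebf1 and -0.36 to 0.013 for Gata2. In late against early on LFC, normexp gave -0.017 for Klf15, quantile normalisation -0.55 for Ebf1, and median scaling -0.16 for Cebpb, -0.28 for Klf15 and -0.24 for Ebf1. Array weights gave 0.13 for Ebf2, leaving out LFC week 3 gave 0.030 for it, and leaving out the week array with another title gave -0.44 for Klf15 and 0.059 for Gata2. With weeks 0 to 18 alone, Cebpa was 0.31, Cebpd -0.32, Klf15 -0.14 and Ebf1 -0.57, and the second Klf15 probe gave -0.19. Leaving out 1 time point gave -0.11 to 0.68 for Cebpb, -0.44 to 0.56 for Klf15, -0.26 to 0.47 for Ebf1, -0.59 to 0.030 for Ebf2 and -0.48 to 0.11 for Gata2.

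The probes called late against early on LFC (149) were 0 with normexp and with weeks 0 to 18 alone, 97 with quantile normalisation, 78 with median scaling or without the week array with another title, 82 with outlier spots kept, 40 when a probe had to be above background on all arrays, 331 with array weights and 50 to 213 without 1 time point. On HFC (0) they were 1 with quantile normalisation, with weeks 0 to 18 alone and without the week array with another title, 41 with median scaling, 8030 with array weights (5 members) and 0 to 825 without 1 time point (0 to 1 members). For late against early of HFC minus LFC, array weights and weeks 0 to 18 alone each called 1. For the mean of the doses, 0 to 1 were called without 1 week. The median over all probes moved by more than 0.1 under some scalings, at most from -0.09 to 0.31 in late against early on LFC with normexp. The causes were not tested. The slide as a random block was not run for the 3 comparisons over time. Diets were paired by time point, and without that block 0 probes and 0 members were called between diets. The labels give no replicate numbers that could pair arrays in another way.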
